A study of Mus musculus with 20 samples.

Results

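Gene expression in the hippocampus of mice given nicotine was compared with that of mice given saline. The comparison used every hippocampal library, 12 of the 20 samples in the series, with 6 in the nicotine group and 6 in the saline group. All mice were wild-type C57/BL6 animals aged 2 to 6 months. The nicotine group received nicotine at 0.2 mg/kg and the control group received 0.9% saline, and the hippocampus was collected 24 hours later from both. The labels used here state neither the route of this dose nor the sex of these mice. All 12 libraries were prepared from poly(A)-selected RNA, carry the same batch number, 2, and are labelled as biological replicates. The other 8 samples, from prefrontal cortex, carry another batch number and were not used here.

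Nicotine opens nicotinic acetylcholine receptors, pentameric cation channels whose α4β2 and homomeric α7 forms are the main types in brain. In the hippocampus these receptors sit on interneurons, on the terminals of glutamatergic and GABAergic axons and on principal cells, and their endogenous ligand arrives mainly from septal cholinergic fibres. The principal cells are the granule cells of the dentate gyrus, which send mossy fibres to CA3, and the pyramidal cells of CA3, CA2 and CA1. A single sample taken a day after a dose can show lasting differences in RNA level but not the first wave of transcription.

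The libraries held 51969343 to 68196280 counts in the saline group and 53145736 to 62982229 in the nicotine group, and the dispersion common to all genes corresponded to a biological coefficient of variation of 0.161. Xist was at or below 0.141 CPM (counts scaled to the library's total) in every library and the Y-linked Eif2s3y was at 31.4 to 40.1 CPM, the pattern of male tissue. Several libraries stood apart from the rest. Saline 2 had the highest mitochondrial share of its group, 9.10% of counts, and lay at 35.2 on the first principal component of log2 CPM, which held 28.9% of the variance. Nicotine 2 had the highest mitochondrial share of all, 11.6%, and lay at -31.7 on the third component, which held 13.7% of the variance. Ttr, the transthyretin gene that marks choroid plexus, exceeded 1000 CPM in saline 2, saline 5, nicotine 4 and nicotine 5, and was at 15.3 to 220.0 CPM in the other 8 libraries. Ttr also had the largest loading on the first component, followed by the choroid plexus markers Tmem72 and Kcne2. On that component saline 5, nicotine 4 and nicotine 5 lay at 17.9, 15.3 and 14.7, and the 8 libraries lower in Ttr had negative values. All 16 choroid plexus markers were lower on average with nicotine, with a median log2 fold change of -0.51, but the ranges of their mean level overlapped, at 1.16 to 5.67 log2 CPM in saline and 1.40 to 4.96 in nicotine. Leaving out 1 library at a time moved that median between -1.42 and 0.75. Oligodendrocyte markers averaged 5.74 log2 CPM in saline 4 and 6.56 to 7.20 in the other 11 libraries. Neocortex markers averaged 4.62 to 4.80 log2 CPM in nicotine 1, 2, 5 and 6, above the saline range of 4.18 to 4.53, whereas nicotine 3 and 4 were inside it at 4.26 and 4.40. The part of these markers in the results below was not tested beyond the values given there.

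**Figure D1:**
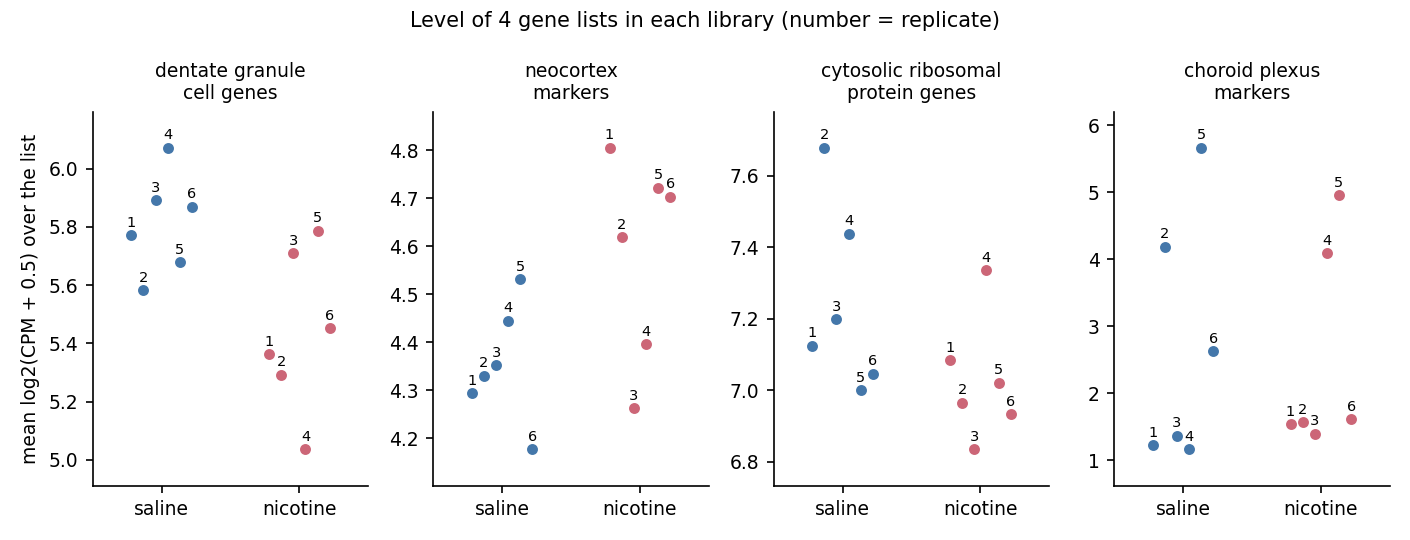
Mean log2(CPM + 0.5) of 4 gene lists in each library, with saline on the left and nicotine on the right of each panel; each point is a library and its number is the replicate, and the vertical axes differ between panels. Dentate granule cell genes were lowest in nicotine 4, the neocortex markers of nicotine 1, 2, 5 and 6 lay above every saline library, the ribosomal protein genes were highest in saline 2, and the choroid plexus markers of 4 libraries lay above 4.

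No gene passed the threshold. Of 18873 genes tested with edgeR's quasi-likelihood test, 0% were called higher and 0% lower at an adjusted p under 0.05, and the smallest adjusted p was 0.555. At an unadjusted p under 0.05 there were 735 genes higher with nicotine (3.89%) and 842 lower (4.46%). DESeq2 called 8 genes higher (0.055% of the 14533 to which it gave an adjusted p) and 7 lower (0.0482%), and limma-voom called 0. The CPM of all 6 nicotine libraries exceeded all 6 saline libraries for 32 genes (0.17%) and lay below all of them for 41 genes (0.217%).

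The data nevertheless bounded the change of most expressed genes. The 95% confidence interval of the log2 fold change reached a median of 0.22 to either side of the estimate, and it lay within a 1.5-fold change in both directions for 14022 genes, 74.3% of those tested. That share was 97.4% among genes of 10 to 100 CPM and 98.2% among genes of 100 CPM or more, but 13.7% among genes under 1 CPM. Within 1.2-fold lay the intervals of 6999 genes (37.1%), and within 2-fold those of 17348 (91.9%). The fitted change itself exceeded 1.5-fold for 374 genes, of which 292 were under 1 CPM, and exceeded 2-fold for 38. The median log2 fold change of all genes tested was 0.0028.

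Genes of dentate granule cells had the lowest median change of the 37 gene lists that are not markers of other tissues or of glia, vessels and blood. All 18 genes of a list of granule cell genes were lower on average in the nicotine group, with a median log2 fold change of -0.31, and 14 of the 18 were lower at an unadjusted p under 0.05, a result that 4.46% of all genes tested gave. None passed the adjusted threshold with edgeR. Plk5, a polo-like kinase without mitotic function that is expressed in brain, Calb1, the calcium buffer calbindin, and Synpr, the synaptic vesicle protein synaptoporin of mossy fibres, were among the genes DESeq2 called. The list was drawn up with earlier results of these data known, those of these 3 genes among them, so its direction is a description and not independent evidence. Without them, all 15 remaining genes were lower, with a median of -0.29, and 11 were lower at an unadjusted p under 0.05. These 15 were also chosen with earlier results known, so their direction is likewise a description.

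Plk5 (chromosome 10, 80356459 to 80365489 of mm10, plus strand) ranged from 17.0 to 22.8 CPM in saline, with a median of 19.1, and from 8.53 to 16.7 CPM in nicotine, with a median of 11.3. The groups did not overlap, and nicotine 5, the highest of its group, came closest to the saline libraries. Its log2 fold change was -0.73 ± 0.13 (SE), with a 95% interval from -1.02 to -0.44, or 1.36 to 2.02 times less. The adjusted p was 0.555 with edgeR and 0.00163 with DESeq2, and Plk5 also passed with edgeR when nicotine 5 was left out (log2 fold change -0.85, adjusted p = 0.0306) and when the 4 libraries rich in Ttr were left out (-0.85, adjusted p = 0.0488). Both settings leave out nicotine 5, the nicotine library closest to saline for Plk5, so they are not separate evidence. Calb1 (chromosome 4, 15881264 to 15908064, plus strand) ranged from 117 to 152 CPM in saline, with a median of 124, and from 90.7 to 112 CPM in nicotine. These groups were also apart, by a log2 fold change of -0.34 ± 0.07. For Synpr (chromosome 14, 13284780 to 13616340, plus strand) the saline libraries spanned 95.2 to 127 CPM around a median of 105, and the nicotine libraries 67.0 to 96.4 around 83.1. Nicotine reached just into the saline range, with 5 of 6 libraries below it, and the log2 fold change was -0.40 ± 0.09. The adjusted p of Calb1 was 0.023 and that of Synpr 0.0484 with DESeq2, against 0.555 for both with edgeR. Over the 26 other settings of the analysis, the highest adjusted p of each of the 3 genes was 0.862.

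The rest of the granule cell list shared the direction. C1ql2, a secreted synaptic organiser of mossy fibre synapses, was at 64.4 to 99.2 CPM in saline (median 74.0) and at 36.2 to 71.1 CPM in nicotine (median 53.4), a log2 fold change of -0.54 ± 0.14. Tdo2, which encodes the tryptophan-degrading enzyme tryptophan 2,3-dioxygenase, was at 4.33 to 7.34 CPM in saline (median 5.69) and at 2.12 to 5.06 CPM in nicotine (median 3.65), a log2 fold change of -0.71 ± 0.18. In both genes 5 of the 6 nicotine libraries lay below every saline library, with nicotine 5 as the exception. Prox1, the transcription factor that specifies granule cell identity, was at 87.9 to 129 CPM in saline (median 112) and at 59.6 to 113 CPM in nicotine (median 88.7), a log2 fold change of -0.33 ± 0.14. Its groups overlapped, with 3 nicotine libraries below the lowest saline library. Lct (-0.54 ± 0.20), Npnt (-0.32 ± 0.14), Stxbp6 (-0.31 ± 0.12), Trpc6 (-0.29 ± 0.13), Sema5a (-0.29 ± 0.13), C1ql3 (-0.28 ± 0.12), Rfx3 (-0.26 ± 0.10) and Ablim3 (-0.16 ± 0.07) made up the rest of the 14 by their log2 fold changes. Dsp (-0.49 ± 0.25), Maml2 (-0.24 ± 0.12), Dock10 (-0.16 ± 0.09) and Pdzd2 (-0.10 ± 0.11) were lower on average but not at an unadjusted p under 0.05.

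**Figure D2:**
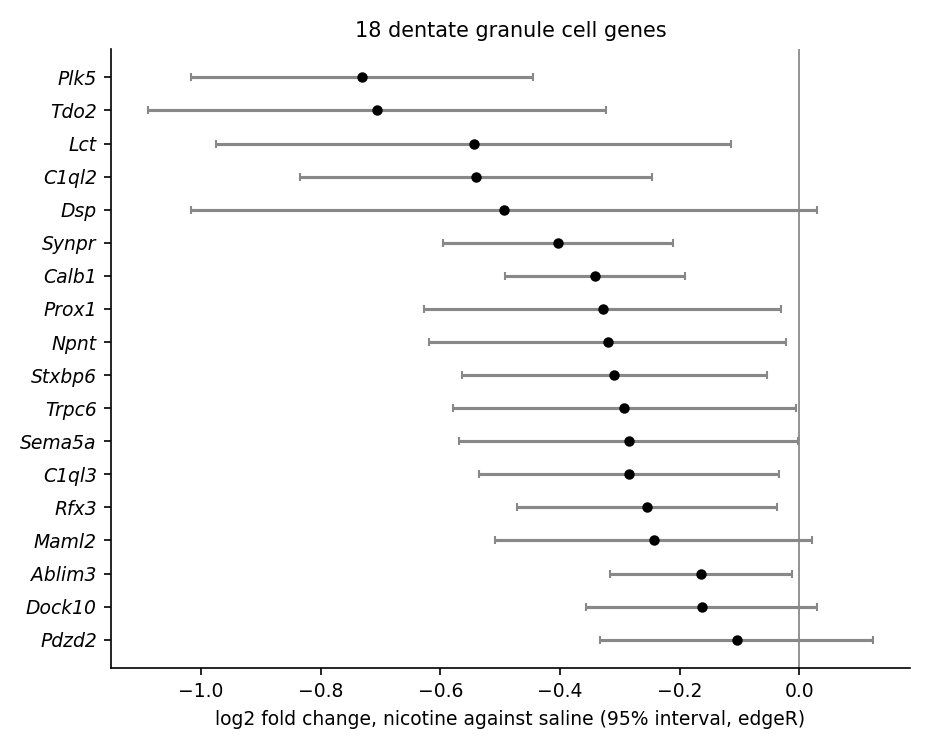
The log2 fold change of each of 18 dentate granule cell genes, nicotine against saline over 6 libraries each, with its 95% confidence interval from the edgeR fit; the vertical line marks no change. All 18 estimates lay below 0, from -0.73 for Plk5 to -0.10 for Pdzd2, and 4 of the intervals crossed 0.

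Averaged over the 18 genes, the granule cell level was 5.58 to 6.07 log2 CPM in saline and 5.04 to 5.79 log2 CPM in nicotine. Nicotine 1, 2, 4 and 6 lay below every saline library, and nicotine 3 and 5, at 5.71 and 5.79, lay inside the saline range. In bulk tissue, fewer granule cells in the sample and less RNA of these genes per cell cannot be told apart. The direction of all 18 genes was the same under every one of the 26 other settings, and the median moved between -0.38 and -0.23 when 1 library at a time was left out. The number at an unadjusted p under 0.05 depended more on single libraries. It dropped to 6 without saline 4, to 7 without nicotine 4, to 8 without saline 6, nicotine 1 or nicotine 2, and to 9 without saline 3. It was 14 of 18 without the library of highest mitochondrial share in each group (median -0.34) and 17 of 18 without the 4 libraries rich in Ttr (median -0.38). With the mean level of the neocortex markers as a covariate, the median was -0.33 and 7 of 18 genes were at an unadjusted p under 0.05. Of all genes tested, 842 were lower at that level with all libraries, and 518 to 1151 leaving out 1 library. That number was 597 without the highest mitochondrial shares, 1280 without the Ttr-rich libraries and 543 with the covariate. Nicotine 4, the library with the lowest granule cell level, had a neocortex marker level inside the saline range. The neocortex marker levels of nicotine 1, 2 and 6, also below every saline library for granule cell genes, lay above that range. Nicotine 3 was inside the saline range for both lists, and nicotine 5 was above it for neocortex markers only. The part of neocortical tissue in the granule cell level was not tested.

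Genes that mark the other hippocampal fields had medians closer to 0 with all libraries, and these moved with the setting. CA3 pyramidal genes were lower on average in 8 of 8, with a median log2 fold change of -0.10, and 1 was lower at an unadjusted p under 0.05. That gene was Bok, a Bcl-2 family member, at 37.1 to 57.8 CPM in saline (median 50.3) and 24.3 to 55.1 CPM in nicotine (median 37.4), with overlapping groups. Of 8 CA2 genes, 5 were lower, with a median of -0.10. The neurotrophin gene Ntf3, which was in the CA2 list, had a log2 fold change of -0.30 ± 0.10. Of 9 CA1 genes, 7 were higher, with a median of 0.06. With the neocortex marker covariate the CA3 median was 0.06, with 7 of 8 genes higher, and the CA2 median was 0.02. Without the 4 libraries rich in Ttr the CA3 median was -0.21, with 4 of 8 genes lower at an unadjusted p under 0.05, and the CA2 median was -0.24. The CA1 median was 0.0038 without those libraries, and without saline 4 it was -0.01, with 4 of 9 CA1 pyramidal genes higher. Over all genes tested, 842 were lower at an unadjusted p under 0.05 with all libraries and 1280 without the 4 libraries rich in Ttr.

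Genes of newborn neurons and progenitors showed no common direction, with 8 of 15 higher and a median log2 fold change of 0.03. Dcx, the microtubule protein of migrating neuroblasts, was at 13.3 to 19.2 CPM in saline and 15.4 to 22.6 CPM in nicotine, a log2 fold change of 0.25 ± 0.11. Nes, the intermediate filament nestin of neural progenitors and blood vessel cells, was at 8.40 to 11.4 CPM in saline and 11.2 to 17.9 CPM in nicotine, a log2 fold change of 0.42 ± 0.12. Tubb3, a neuronal tubulin, was 0.18 ± 0.07 higher on the log2 scale. None passed the adjusted threshold with edgeR (0.555 for Nes, 0.58 for Dcx, 0.565 for Tubb3).

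No receptor gene for nicotine itself passed the threshold. Of 16 nicotinic subunit genes 11 were expressed enough to test, 6 were higher and 5 lower, and the median log2 fold change was 0.01. The intervals of 4 of the 11 lay within 1.5-fold. With the neocortex marker covariate 9 of 11 were higher, with a median of 0.13. Chrna4, the α4 subunit, had the smallest p of the list. It was at 17.0 to 37.9 CPM in saline (median 24.8) and at 26.9 to 44.0 CPM in nicotine (median 34.8), with 1 nicotine library above the saline range. Its log2 fold change was 0.40 ± 0.16, with an adjusted p of 0.556 by edgeR, and it was 0.11 with the neocortex marker covariate. Chrnb2, the β2 partner of α4, was at 38.4 to 64.0 CPM in saline and 58.7 to 66.8 CPM in nicotine, with an interval of the log2 fold change from -0.10 to 0.32. Chrna7, which forms the homomeric receptor, was at 15.5 to 25.5 CPM in saline and 19.1 to 32.4 CPM in nicotine, and its interval from -0.17 to 0.43 reached 1.35-fold at its upper end. The groups overlapped for all of these genes. Chrna5, an accessory subunit, was at 3.53 to 6.78 CPM in saline and 4.07 to 5.98 CPM in nicotine. Chrna3 and Chrnb4, which lie next to Chrna5 in one cluster, were at 0.25 to 0.89 CPM and 0.113 to 1.35 CPM over all 12 libraries, and their intervals reached from -0.40 to 0.82 and from -1.83 to 0.46.

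Proteins that assemble or modulate nicotinic receptors were bounded more tightly, and the intervals of all 9 tested genes of that list lay within 1.5-fold. The chaperones Ric3 and Tmem35a, which help subunits assemble, had log2 fold changes of 0.04 ± 0.06 and -0.04 ± 0.06. The prototoxins Lynx1 and Lypd6, which bind the receptors, had log2 fold changes of 0.12 ± 0.07 and 0.13 ± 0.08. Of the 10 tested genes of muscarinic receptors and acetylcholine handling, 9 were higher, with a median of 0.16 that was 0.06 without saline 2. Chrm2, the inhibitory M2 receptor, was at 6.36 to 9.16 CPM in saline (median 8.48) and 8.65 to 11.5 CPM in nicotine (median 10.9), with 5 of 6 nicotine libraries above every saline library and nicotine 3 within their range. Its log2 fold change was 0.39 ± 0.10, with an adjusted p of 0.555 by edgeR and 0.0953 by DESeq2. Chrm4 (0.23 ± 0.11) and Ache, the enzyme that breaks acetylcholine down (0.12 ± 0.08), overlapped between the groups.

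Activity-regulated genes were variable within both groups. Of 36 immediate early and activity genes, 27 were higher on average, with a median log2 fold change of 0.05. At an unadjusted p under 0.05, 0 of the 36 were higher and 1 lower, against 3.89% and 4.46% of all genes tested. With the neocortex marker covariate 15 were higher and 21 lower, with a median of -0.04. Fos was at 5.57 to 27.3 CPM in saline and 9.70 to 26.7 CPM in nicotine, and Arc at 58.9 to 216 CPM in saline and 62.2 to 202 CPM in nicotine. Both ranges nearly coincided between the groups, and saline 5, nicotine 1 and nicotine 5 held the highest values of both genes. Npas4 (0.24 ± 0.29), Nr4a1 (0.18 ± 0.19) and Egr1 (0.34 ± 0.20) were likewise within the spread by their log2 fold changes. Jun, the AP-1 component, was the 1 gene lower, at 103 to 139 CPM in saline (median 119) and 73.1 to 132 CPM in nicotine (median 97.5). Bdnf, the neurotrophin most tied to plasticity, was at 38.0 to 50.9 CPM in saline and 37.0 to 47.3 CPM in nicotine, with an interval from -0.23 to 0.10, and its receptor gene Ntrk2 was 0.15 ± 0.06 higher on the log2 scale.

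Outside the granule cell list, the genes lowest by p were of mixed function. Rasl10a (chromosome 11, 5058128 to 5060385, plus strand), a Ras-like small GTPase of neurons, had the smallest p of all genes tested. It was at 34.7 to 45.3 CPM in saline (median 40.3) and 26.0 to 33.9 CPM in nicotine (median 29.5), with no overlap, and its log2 fold change was -0.43 ± 0.08. Its whole length lies opposite Gas2l1, which had a log2 fold change of -0.08 ± 0.06, and the strand used in counting is not given in the sources used here. Other named genes also share bases on the opposite strand with a gene that holds over 10% of their counts, and are uncertain for that reason. They are Nek6 with Psmb7, Kctd4 with Gtf2f2, Chrnb2 with Adar, Ric3 with Tub, Syt2 with Ppp1r12b, Grin2d with Kdelr1, Gpr34 with Cask and Nr1d1 with Thra. The same applies to Dlx1 with Dlx1as, Ndufs3 with Kbtbd4, Gm26782 with Tep1, Hsd11b1 with Lamb3, and Chrm2 and Ache, each with a long noncoding RNA. Slc26a10, an anion transporter relative, was at 8.47 to 11.3 CPM in saline (median 9.17) and 4.16 to 7.62 CPM in nicotine (median 6.25), also without overlap, and it shares 938 bases with B4galnt1 on the other strand. Gpr27, an orphan receptor, was at 37.4 to 44.7 CPM in saline and 33.2 to 37.4 CPM in nicotine, and the groups were just apart. Nek6, a mitotic kinase, was at 41.0 to 48.8 CPM in saline and 34.8 to 39.4 CPM in nicotine, and Rras2, another Ras relative, at 23.0 to 24.7 CPM in saline and 16.3 to 22.9 CPM in nicotine. For both the groups did not overlap. Their log2 fold changes were -0.61 ± 0.14 for Slc26a10, -0.23 ± 0.05 for Gpr27, -0.23 ± 0.05 for Nek6 and -0.30 ± 0.07 for Rras2. Spata13, a guanine exchange factor (-0.37 ± 0.08), Kctd4 (-0.34 ± 0.08) and Limd2 (-0.31 ± 0.07) were lower with some overlap. The predicted gene Gm21887 was at 1.45 to 6.69 CPM in saline and 1.25 to 2.30 CPM in nicotine, with overlapping groups. The adjusted p of each of these genes was 0.555 with edgeR, and DESeq2 called Rasl10a (0.00224), Slc26a10 (0.023), Gpr27 (0.0484) and Gm21887 (0.0244).

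**Figure D3:**
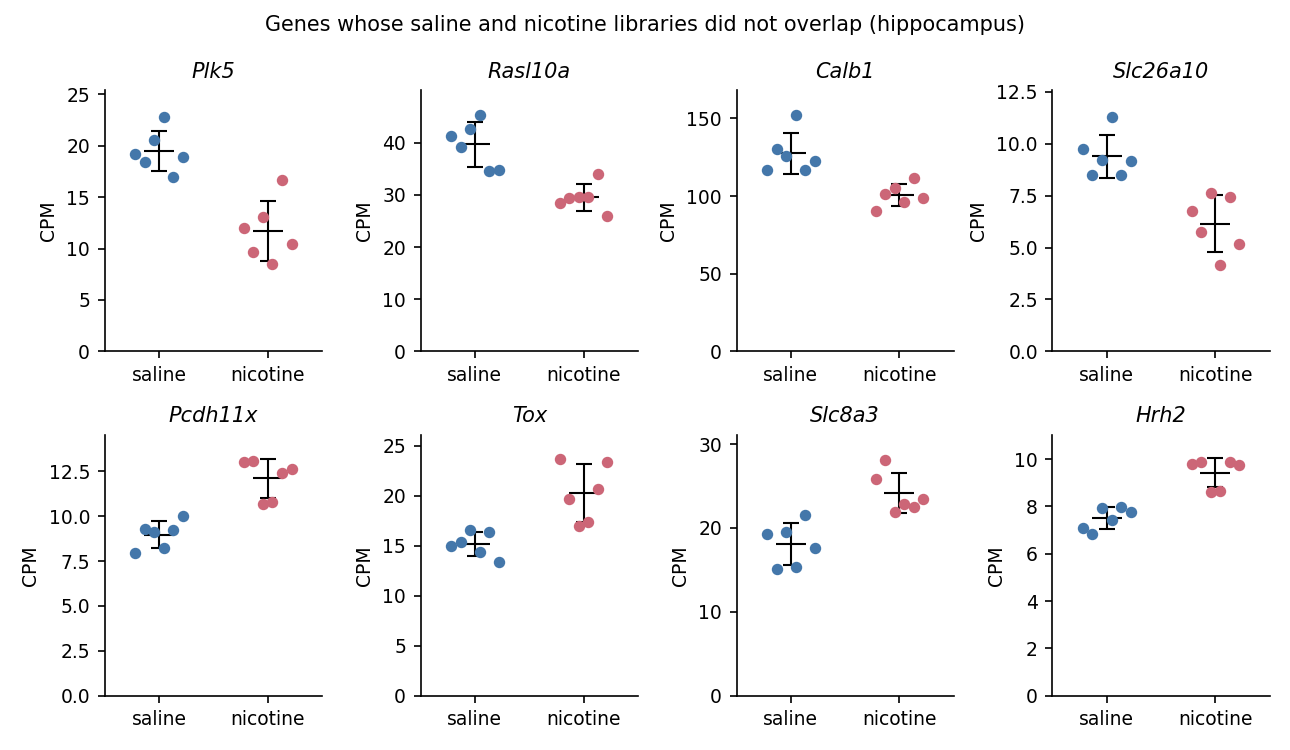
CPM of 8 genes in each library, saline and nicotine with 6 points each; black bars give the mean and the SD, and each vertical axis starts at 0. The upper row shows genes lower with nicotine and the lower row genes higher with nicotine. The 8 genes were picked from the 73 of 18873 tested whose groups did not overlap, so the separation in the panels is how they were chosen. The gap was narrow for Plk5 (16.7 against 17.0 CPM) and Slc8a3 (21.9 against 21.6 CPM).

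The 12 genes higher with nicotine by the smallest p were of mixed function. Pcdh11x (chromosome X, 120290259 to 120910619, plus strand), a protocadherin that mediates contact between neurons, was at 7.94 to 10.0 CPM in saline (median 9.17) and 10.7 to 13.1 CPM in nicotine (median 12.5). The groups did not overlap, and the log2 fold change was 0.43 ± 0.08. Tox, an HMG-box factor of the cortical and immune lineages, was at 13.4 to 16.6 CPM in saline (median 15.2) and 16.9 to 23.7 CPM in nicotine (median 20.2), again apart. Slc8a3, the sodium-calcium exchanger NCX3, was at 15.2 to 21.6 CPM in saline (median 18.5) and 21.9 to 28.2 CPM in nicotine (median 23.2). Hrh2, the histamine H2 receptor, was at 6.82 to 7.97 CPM in saline (median 7.60) and 8.59 to 9.90 CPM in nicotine (median 9.78). For both genes every nicotine library was above every saline library, with log2 fold changes of 0.41 ± 0.09 and 0.33 ± 0.08, and that of Tox was 0.42 ± 0.09. Epb41l3, a membrane skeleton protein of the 4.1 family, was at 150 to 192 CPM in saline and 205 to 218 CPM in nicotine, also without overlap, and its log2 fold change was 0.28 ± 0.07.

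Cit, citron kinase, was at 59.2 to 85.8 CPM in saline (median 63.4) and 76.5 to 118 CPM in nicotine (median 103), with 4 nicotine libraries above the saline range. Meis2, a homeobox factor, was at 48.6 to 72.5 CPM in saline (median 52.1) and 53.0 to 88.0 CPM in nicotine (median 83.3), with nicotine 3 as the only library of its group within the saline range. Akap12, a scaffold for protein kinase A, was at 19.1 to 24.5 CPM in saline and 24.0 to 32.1 CPM in nicotine. Their log2 fold changes of 0.55 ± 0.12, 0.50 ± 0.12 and 0.42 ± 0.09 were 0.28, 0.29 and 0.28 with the neocortex marker covariate, and that of Tox was 0.22. Ank1 (0.32 ± 0.07), Nefh, the heavy neurofilament chain (0.29 ± 0.07), Efna5, an ephrin ligand (0.38 ± 0.09), and the unnamed gene model Gm26782 (0.39 ± 0.10) completed the 12 higher genes. All 12 had an adjusted p of 0.555 with edgeR. DESeq2 called Pcdh11x (0.00163), Akap12 (0.023), Cit (0.023), Hrh2 (0.023), Tox (0.0244), Slc8a3 (0.0353), Meis2 (0.0454) and Efna5 (0.0495), and the highest adjusted p of each over the other settings was 0.862.

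Gene lists of synapses and excitability leaned higher, and their medians were lower without saline 2. Of 33 presynaptic genes 30 were higher, with a median log2 fold change of 0.14 and 5 higher at an unadjusted p under 0.05, against 3.89% of all genes. The vesicle list averaged 7.32 log2 CPM in saline 2, 7.59 to 7.68 in the other saline libraries and 7.59 to 7.84 in nicotine. Rims2, an active zone organiser, was at 87.1 to 93.2 CPM in saline and 95.6 to 113 CPM in nicotine, with no overlap, and Syt2, a fast calcium sensor of release, was at 17.0 to 32.4 CPM in saline and 29.0 to 49.8 CPM in nicotine. Without saline 2, 27 of the 33 presynaptic genes were higher and the median was 0.07. The median was 0.06 both without the library of highest mitochondrial share in each group and with the neocortex marker covariate, where 23 of 33 were higher and 1 was at an unadjusted p under 0.05. Without the 4 libraries rich in Ttr 10 were at that level, and among presynaptic vesicle and release genes it was reached by 9 without saline 4, 8 without saline 5, nicotine 3 or nicotine 4, and 3 without nicotine 2 or nicotine 6. Among all genes tested, 735 were higher at that level with all libraries, 1322 without the Ttr-rich libraries and 439 with the neocortex marker covariate. Of 40 potassium channel genes 34 were higher (median 0.09), of 28 voltage-gated sodium and calcium channel genes 24 (median 0.11), and of 15 ionotropic glutamate receptor subunits 11 (median 0.14). Without saline 2 these medians were 0.04, 0.05 and 0.05. Kcna2, a potassium channel of axons, was at 131 CPM in saline 2, at 178 to 193 CPM in the other saline libraries and at 192 to 248 CPM in nicotine. Among glutamate receptor genes, Gria4 (0.28 ± 0.10), Grik3 (0.30 ± 0.12), Grin2d (0.31 ± 0.12) and the metabotropic Grm4 (0.52 ± 0.18) and Grm3 (0.13 ± 0.05) had the smallest p by their log2 fold changes. Cacna2d2, a calcium channel subunit, was 0.44 ± 0.12 higher on that scale and Scn1a 0.27 ± 0.10.

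Genes of inhibitory interneurons were higher in 21 of 22, with a median log2 fold change of 0.16, and 5 were higher at an unadjusted p under 0.05, against 3.89% of all genes. That count of inhibitory interneuron genes was 2 to 7 leaving out 1 library, with 2 without saline 1 or saline 5 and 3 without nicotine 4. Over all genes tested, 735 were higher at that level with all libraries, 511 to 1001 leaving out 1 library and 439 with the neocortex marker covariate. With that covariate 5 of the 22 interneuron genes were at that level, and their list had a median of 0.16. The list averaged 5.08 to 5.35 log2 CPM in saline and 5.23 to 5.54 in nicotine, with 4 nicotine libraries above the saline range. Slc32a1, the vesicular GABA transporter, was at 59.4 to 78.7 CPM in saline (median 74.1) and 75.3 to 96.6 CPM in nicotine (median 86.1). Dlx2 and Dlx1, homeobox factors of the interneuron lineage, were highest in nicotine 2 and 4, with log2 fold changes of 0.42 ± 0.15 and 0.24 ± 0.10. Without saline 2, 19 of 22 interneuron genes were higher and the median was 0.11. GABA-A receptor subunits were split, with 9 of 16 higher, and Gabra3 (0.23 ± 0.07) and Gabrg3 (0.21 ± 0.09) had the smallest p. Protocadherins outside the clusters were higher in 9 of 12, with a median of 0.16 that was 0.09 without saline 2. Besides Pcdh11x, Pcdh10 was at 88.7 to 114 CPM in saline and 116 to 135 CPM in nicotine without overlap, and Pcdh7 was 0.25 ± 0.08 higher on the log2 scale. The postsynaptic list was higher in 18 of 27, with Camk4 (0.28 ± 0.10), Akap5 (0.26 ± 0.10) and Dlgap4 (0.19 ± 0.07) at the smallest p.

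**Figure D4:**
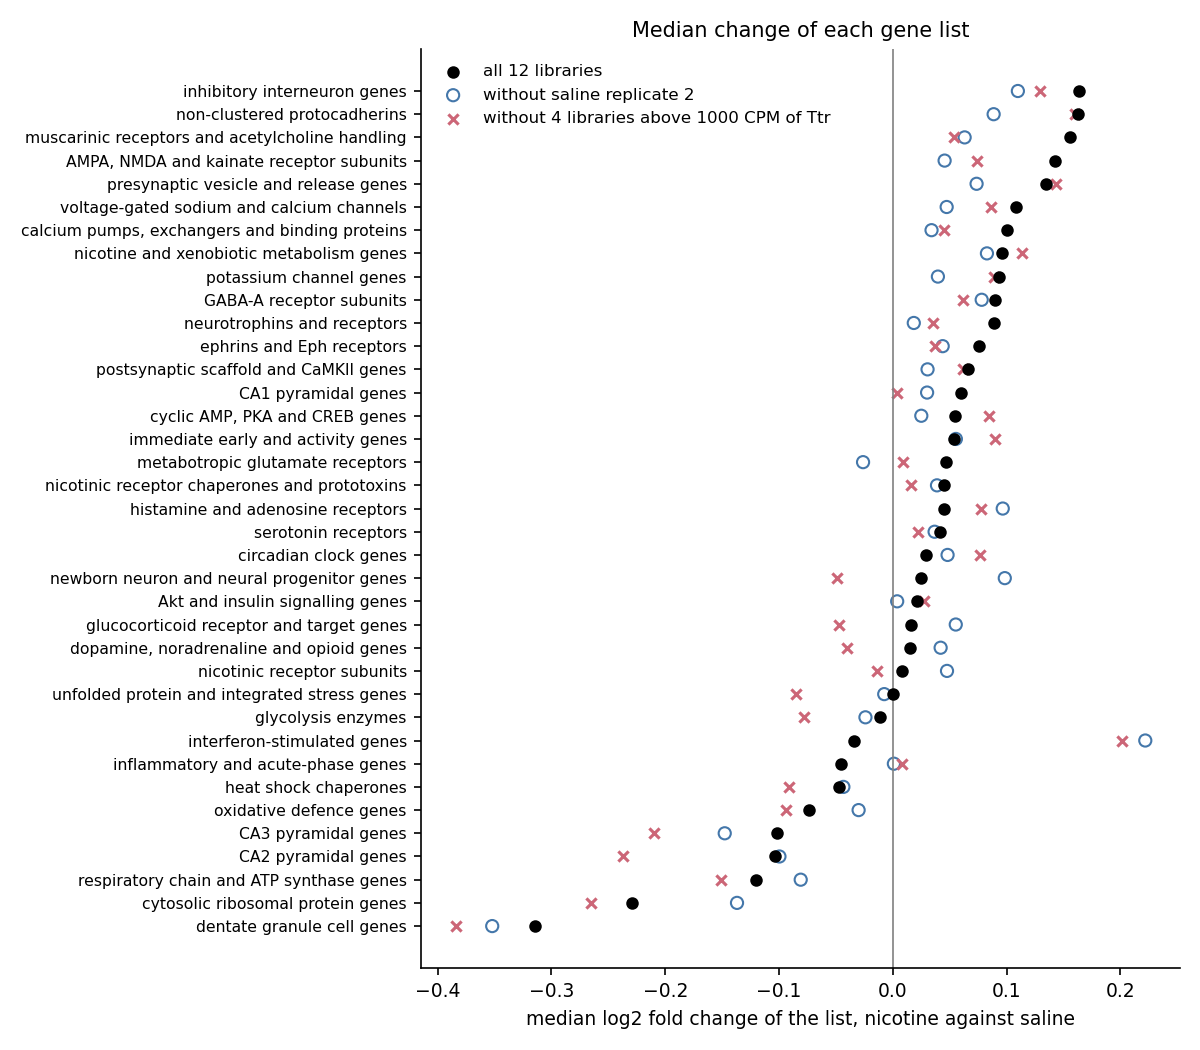
Median log2 fold change, nicotine against saline, of each of 37 gene lists; filled circles use all 12 libraries, open circles leave out saline replicate 2, and crosses leave out the 4 libraries with over 1000 CPM of Ttr. Dentate granule cell genes had the lowest median, -0.31, under the main fit; several neuronal lists moved toward 0 without saline 2, and the interferon-stimulated genes moved from -0.03 to 0.22.

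Modulatory receptors and peptides gave few differences. Of 26 dopamine, noradrenaline and opioid genes 15 were higher, with a median log2 fold change of 0.02. Pdyn, the prodynorphin gene of mossy fibres, was at 9.60 to 14.6 CPM in saline (median 10.3) and 4.18 to 10.5 CPM in nicotine (median 8.06), with 5 nicotine libraries below every saline library and a log2 fold change of -0.53 ± 0.17. Oprd1, the delta opioid receptor (0.38 ± 0.15), and Adra1a, an adrenergic receptor (0.23 ± 0.09), were higher on average, and Th, the enzyme that makes catecholamine precursor, stayed at 0.751 to 1.26 CPM in all 12 libraries. Serotonin receptors were higher in 7 of 13, with Htr7 at 0.21 ± 0.08. Akt and insulin signalling genes had a median of 0.02, and 35 of their 36 intervals lay within 1.5-fold. Akt1 (-0.08 ± 0.06) and Akt2 (-0.02 ± 0.06), kinases downstream of growth factor receptors, differed by less than the spread, and Pik3r1, a regulatory subunit of the kinase that activates them, was 0.12 ± 0.05 higher on the log2 scale. The 14 tested genes of nicotine and xenobiotic metabolism held 0 at an unadjusted p under 0.05. Of all genes tested, 3.89% were higher and 4.46% lower at that level, so 0 in so short a list is no result about its members.

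Most genes of the cytosolic ribosome and the respiratory chain were lower on average with nicotine. Cytosolic ribosomal protein genes were lower in 67 of 69, with a median log2 fold change of -0.23, and 30 were lower at an unadjusted p under 0.05, a level reached by 4.46% of all genes tested. Respiratory chain and ATP synthase genes were lower in 65 of 70, with a median of -0.12, and 15 were lower at that level. Rpl34 was at 59.2 to 109 CPM in saline (median 69.3) and 47.9 to 72.7 CPM in nicotine (median 54.2), a log2 fold change of -0.41 ± 0.14, and Rpl22 and Rps15a were -0.25 ± 0.08 and -0.22 ± 0.07. These genes have many processed pseudogenes, so their counts are uncertain. Sdhd, a succinate dehydrogenase subunit (-0.28 ± 0.09), Atp5e (-0.36 ± 0.13) and Ndufs3 (-0.20 ± 0.07) had the smallest p of the respiratory list. The ribosomal list averaged 7.68 log2 CPM in saline 2, 7.00 to 7.44 in the other saline libraries and 6.84 to 7.34 in nicotine. Without saline 2 the median was -0.14 and 5 of the 69 were at an unadjusted p under 0.05. Without the library of highest mitochondrial share in each group these values were -0.11 and 2, and without the 4 libraries rich in Ttr they were -0.26 and 54. With the neocortex marker covariate 3 ribosomal and 6 respiratory genes were at that level, with medians of -0.23 and -0.13. The count was also 8 without saline 4, 9 without nicotine 3 or nicotine 6, 10 without nicotine 2, 14 without nicotine 5, 46 without saline 5 and 52 without nicotine 4. For the respiratory genes the count was 3 without saline 2, 4 without saline 4 or nicotine 3, 6 without nicotine 6, 7 without nicotine 2 or nicotine 5, 9 without saline 3, 23 without saline 6 and 34 without nicotine 4.

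Transcript length moved with the direction of the change across all genes. Among 14833 genes of at least 1 CPM with an annotated length, the median log2 fold change was -0.05 in the shortest of 5 equal length classes and 0.06 in the longest. At an unadjusted p under 0.05, 283 genes were lower and 56 higher in the shortest class, against 37 lower and 239 higher in the longest. The difference in mean log2 CPM between the longest and the shortest class was 1.63 in saline 2, 1.88 to 2.02 in the other saline libraries and 1.83 to 2.21 in nicotine, so the groups overlapped. The part of transcript length in the ribosomal, channel and synaptic lists was not tested.

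**Figure D5:**
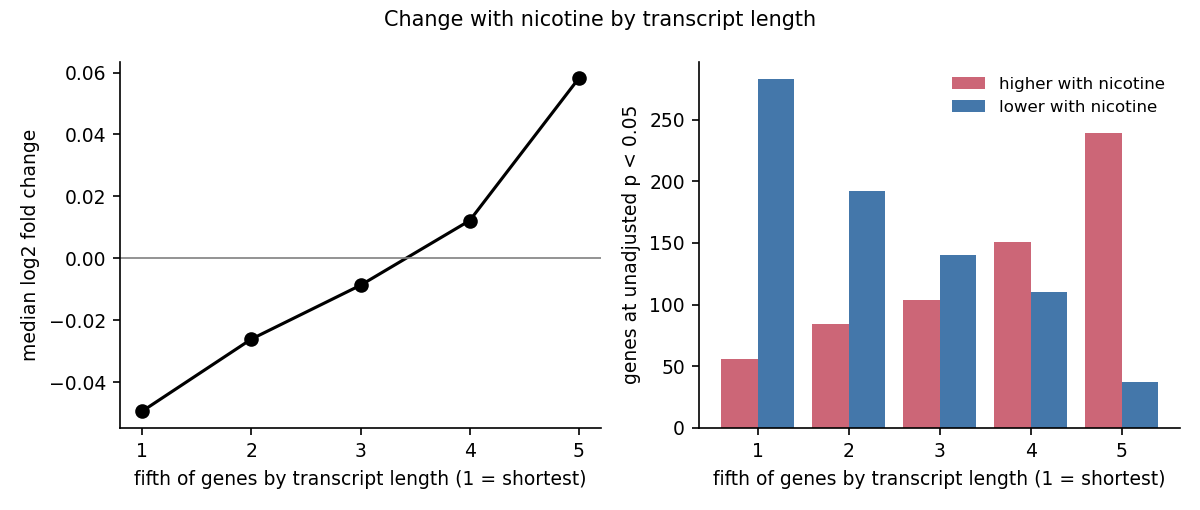
Left, the median log2 fold change of genes of at least 1 CPM in each of 5 classes of annotated transcript length, from the shortest (1) to the longest (5); right, the number of genes at an unadjusted p under 0.05 in each class, higher or lower with nicotine. The median went from -0.05 to 0.06, and the number lower went from 283 to 37 as the number higher went from 56 to 239.

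Stress and defence genes showed small differences. Of 23 genes of the unfolded protein and integrated stress response, 0 were higher and 6 lower at an unadjusted p under 0.05, against 4.46% of all genes, while the list median was 0.00. The 6 became 3 without saline 4, saline 6, nicotine 1 or nicotine 3 and with the neocortex marker covariate, 4 without nicotine 2 or nicotine 4, and 7 without saline 2, in this list of unfolded protein and integrated stress genes. Hspa5, the chaperone BiP of the endoplasmic reticulum, was at 244 to 354 CPM in saline (median 288) and 210 to 286 CPM in nicotine (median 237), and its cofactor gene Sdf2l1 was at 9.36 to 15.5 CPM in saline and 7.45 to 10.9 CPM in nicotine. Their log2 fold changes were -0.28 ± 0.10 and -0.45 ± 0.13, and that of Creld2, another gene of that compartment, was -0.26 ± 0.09. Oxidative defence genes were lower in 25 of 31, with a median of -0.07, and in 19 of 31, with a median of -0.03, without saline 2. Of these 31, 4 were lower at an unadjusted p under 0.05 with all libraries, and 1 to 8 leaving out 1 library, the lowest without nicotine 2 or nicotine 6 and the highest without nicotine 4. Over all genes tested, 842 were lower at that level with all libraries, 518 to 1151 leaving out 1 library and 543 with the neocortex marker covariate. Glycolysis enzymes had a median of -0.01 and all 19 intervals within 1.5-fold. Glucocorticoid targets were split, with 11 of 20 higher, and Fkbp5, a target induced by corticosterone, was at 51.6 to 79.5 CPM in saline and 49.1 to 77.0 CPM in nicotine. Hsd11b1, which regenerates corticosterone, was -0.29 ± 0.11. All 20 intervals of the circadian clock genes lay within 1.5-fold, and Npas2 (0.31 ± 0.10), Nr1d1 (0.19 ± 0.08) and Tef (-0.17 ± 0.07) had the smallest p.

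Inflammatory and interferon-stimulated genes had no member past edgeR's adjusted threshold. Lcn2, the secreted acute-phase protein lipocalin 2, was near the limit of detection at 0.0284 to 0.315 CPM in saline, 47 counts over 6 libraries, and at 0.0939 to 1.89 CPM in nicotine, 311 counts. Nicotine 2, 3, 4, 5 and 6 lay above every saline library, nicotine 2 by the least, and the fitted difference was 6.33-fold with a 95% interval from 2.47 to 16.3 and an adjusted p of 0.555. Of the 21 inflammatory and acute-phase genes tested, Lcn2 included, 6 were higher, with a median log2 fold change of -0.05 that was 0.001 without saline 2. Lrg1, another acute-phase protein gene, was the other member higher at an unadjusted p under 0.05, by 0.63 ± 0.27 on the log2 scale. Interferon-stimulated genes had a median of -0.03 with all libraries and 0.22 without saline 2, which averaged 2.86 log2 CPM for that list against 1.92 to 2.45 in the other 11 libraries. Of the 24 tested, 0 were higher and 1 lower at an unadjusted p under 0.05 with all libraries. Without saline 2, 6 were higher and 0 lower. Over all genes these numbers were 735 and 842 with all libraries, and 710 and 734 without saline 2.

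Markers of glia and vessels held no gene past edgeR's adjusted threshold. Astrocyte markers were higher in 8 of 15, with a median log2 fold change of 0.02 and every interval within 1.5-fold, and Gfap, the astrocyte filament gene, was at 324 to 629 CPM in saline and 288 to 403 CPM in nicotine. Oligodendrocyte markers were higher in 13 of 18, with a median of 0.06, and in 18 of 18, with a median of 0.21, without saline 2. Without saline 4, the library with the lowest marker level of oligodendrocytes, 6 of 18 were higher and the median was -0.08. Microglia markers were lower in 15 of 17, with a median of -0.11 that was -0.02 without saline 2. Trem2 (-0.28 ± 0.12), a lipid receptor, and Gpr34 (-0.33 ± 0.14), a lysophospholipid receptor, were the 2 lower at an unadjusted p under 0.05, against 4.46% of all genes. These 2 became 0 without saline 2, without the library of highest mitochondrial share in each group and with the neocortex marker covariate. Leaving out 1 library gave 0 to 6 microglia markers lower at that level, and 518 to 1151 of all genes tested. Endothelial markers were higher in 10 of 12, with a median of 0.15 that was 0.13 without saline 2, and 3 of 12 were higher at an unadjusted p under 0.05, against 3.89% of all genes. That count was 6 without nicotine 1 and 2 without saline 1, 2 or 6 or nicotine 6, and 1 with the neocortex marker covariate (endothelium list). Over all genes tested, 735 were higher at that level with all libraries, 511 to 1001 leaving out 1 library and 439 with the covariate. Mural cells had 7 of 8 markers higher, with a median of 0.09. Cdh5, the adherens junction cadherin of endothelium, was at 8.00 to 11.5 CPM in saline (median 9.94) and 11.0 to 16.5 CPM in nicotine (median 11.9). Pecam1 (0.26 ± 0.08) and Vwf (0.35 ± 0.15) followed on the log2 scale. Neocortex markers were higher in 9 of 10, with a median of 0.19. Of the 10, 4 were higher at an unadjusted p under 0.05, against 3.89% of all genes, and 1 to 5 leaving out 1 library. Tshz2, a marker of deep-layer cortical neurons, was at 52.9 to 96.3 CPM in saline (median 61.6) and 50.3 to 163 CPM in nicotine (median 113), with nicotine 1, 2, 5 and 6 above every saline library, nicotine 3 within their range and nicotine 4 below it. Tbr1 (0.29 ± 0.12) and Rspo1 (0.78 ± 0.30) were the others with the smallest p in that list.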

How the data were processed

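RNA was sequenced from 12 hippocampal samples after poly(A) selection, and the authors deposited raw read counts per Ensembl gene. Per the submitters' processing notes, fastp, STAR, featureCounts and DESeq2 were used with mm10; their versions, the annotation and the counting strand were not given in the sources used here. Of 57180 identifiers, 51884 were given a symbol; the remaining 5296 held 1.14% of counts. Coordinates and lengths are from GENCODE vM21 on mm10. Counts were fitted with edgeR 4.0.16 (TMM factors, filterByExpr, quasi-likelihood F-test, Benjamini-Hochberg adjustment over 18873 genes, no covariate). Intervals are the log2 fold change ± the t quantile times the SE. DESeq2 1.42.0, limma 3.58.1 (voom) and sva 3.50.0 in R 4.3.3, other scalings and filters, covariates and left-out libraries were alternatives. Levels of lists are means of log2(CPM + 0.5). The fits were tested on simulated counts. Genes were named by rule: the 12 smallest p in each direction of at least 1 CPM, DESeq2's calls, up to 3 members of each list by p, members whose groups did not overlap, and a short fixed set. The members, the 51 lists and the rule were chosen with earlier results of these data known. A few genes that the rule names are not reported here.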

Additional observations from a re-analysis of the deposited data

Results flagged for a closer look

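In 21 of 256 groups of 6 libraries, the highest or lowest value stood far from the others, by the Dixon criterion; chance gives about 1 in 20. Saline 2 accounted for 10 of them. It was lowest for Pcdh10 (88.7 CPM), Chrnb2 (38.4), Mpped1 (203 CPM), Slc32a1 (59.4), Akap5 (55.9), Kcna2 (131), Adra1a (17.0) and Lrg1 (0.352), and highest for Gfap (629) and Gpr34 (16.7). Saline 5 was highest for Meis2 (72.5), Chrnb4 (1.35) and Grm4 (23.9). Saline 4 was highest for Nek6 (48.8) and Pdyn (14.6), and saline 1 for Dlx2 (6.12). Nicotine 3 was lowest for Meis2 (53.0), Chrm2 (8.65) and Vsnl1 (445), nicotine 2 was highest for Grin2d (30.8), and nicotine 5 was highest for Chrnb4 (0.60).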

How the results depend on the processing

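With 26 other settings, 110 of the 128 genes with values in the text kept one sign, 15 passed the adjusted threshold under some setting, and 16 of 1326 list medians moved by 1 SD or more. That SD is the spread of the list's mean level between libraries within groups, so large shifts of a median can fall under it. The ribosomal median moved from -0.23 to -0.11 without the libraries of highest mitochondrial share, less than its SD of 0.22. The neocortex marker covariate and the removal of the library of highest mitochondrial share in each group were chosen after seeing the data. The adjusted count was 15 with DESeq2 (8 higher and 7 lower), 1 (Plk5, lower) without the 4 libraries rich in Ttr, and 0 to 1 leaving out 1 library, the 1 being Plk5 without nicotine 5. The count at an unadjusted p under 0.05 was 2663 (1373 higher, 1290 lower) with voom quality weights, 2602 (1322 and 1280) without the Ttr-rich libraries and 982 (439 and 543) with the neocortex covariate. With no filter on low counts it was 1149 higher. Leaving out 1 library gave 1029 to 2152 (511 to 1001 higher, 518 to 1151 lower), the lowest without nicotine 6. Fewer libraries make separation easier: 1465 genes (657 higher, 808 lower) did not overlap without the Ttr-rich libraries, 172 (70 and 102) without the libraries of highest mitochondrial share, and 84 to 272 (44 to 131 and 40 to 141) leaving out 1. The share of intervals within 1.5-fold was 42.2% with no filter and 71.1% to 73.6% leaving out 1 library.

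Signs of genes reversed under these settings by log2 fold change, and the cause was not tested. With the neocortex covariate they were Chrna5 0.11, Fos -0.42, Arc -0.33, Npas4 -0.14, Nr4a1 -0.048, Bdnf 0.0032, Epha8 -0.0002, Th 0.0855, Fkbp5 0.026, Lypd6 -0.025 and Tshz2 -0.048 (itself among the markers averaged into that covariate). With quality weights they were Chrna7 -0.043, Ric3 -0.018 and Akt2 0.0038. Without the highest mitochondrial shares they were Chrnb2 -0.0067, Akt2 0.019 and Th 0.0195, and without the Ttr-rich libraries Ric3 -0.044, Akt2 0.0098 and Chrna3 -0.047. Leaving out 1 library gave Chrnb4 -1.03 to 0.044 (reversed without saline 5), Ric3 -0.0003 to 0.068 (saline 2), Akt2 -0.049 to 0.030 (saline 2), Chrna3 -0.0056 to 0.36 (nicotine 4) and Tmem35a -0.064 to 0.009 (saline 4). It gave Arc -0.13 to 0.20 (saline 4, saline 6, nicotine 1 or nicotine 5) and Th -0.14 to 0.020 (saline 2, nicotine 1 or nicotine 6).

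Same-numbered libraries deviated together with correlations of -0.19 to 0.55, so the numbers were not taken to pair the samples. A fit with the replicate block gave 0 genes past the threshold and 768 higher and 881 lower at an unadjusted p under 0.05. The planned Xist covariate was not run, since Xist was near 0 in every library. Depth limits genes under 1 CPM.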
